A study of Rattus norvegicus with 14 samples.

Results

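The genes described here make fatty acids, desaturate and elongate them, and join them to glycerol to form triglyceride. The list holds 38 genes chosen by these roles, and 34 of them had a row among the 16816 genes of the count table. Fasn, Srebf1 and Mlxipl were not analysed here, nor was any row under the symbol Scd2. Of the 34 genes, 30 passed the filter on low counts in every comparison, and Elovl3 passed only in comparisons that include PPFP cells with pioglitazone, the group in which it is highest. Mogat1 and Mogat2 stayed under the filter, and Elovl4 had no count in any library. The libraries came from PCCL3, a rat line of differentiated thyroid follicular cells, which carried either a stably integrated, Myc-tagged human fusion of PAX8 and PPARG (PPFP cells) or the vector without insert (EV cells). Both lines received 1 μM pioglitazone, a PPARG agonist, or vehicle for 16 hours, in a medium that contained thyrotropin, insulin, transferrin, hydrocortisone and serum for all groups. The groups are written EV-Pio, EV+Pio, PPFP-Pio and PPFP+Pio, and each had 3 libraries, which the study describes as independent experiments. Each genotype is 1 transfected line, which the sources used here do not describe as a clone or a pool, so the fusion cannot be told apart from any other difference between the lines.

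Fatty acid synthesis starts from cytosolic acetyl-CoA, which Acly makes from citrate and Acss2 from acetate. Acetyl-CoA carboxylase (Acaca and Acacb) converts it to malonyl-CoA, and Me1 is a source of the NADPH that the synthase consumes. The product is then elongated by Elovl enzymes and desaturated by Scd and Fads enzymes. Acylation of glycerol phosphate by Gpam and its relatives, a further acylation by Agpat enzymes, removal of the phosphate by lipins and a last acylation by Dgat enzymes give triglyceride. In adipocytes PPARG drives many genes of fat storage, whereas SREBP, LXR and ChREBP with its partner Mlx are the best known regulators of the synthetic enzymes themselves.

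The total count on genes ranged from 23724703 to 35240176 per library. Levels are given as CPM, counts scaled to the normalized size of each library, which are not comparable between genes of different length. The 3 libraries of a group always differed beyond sampling noise, but libraries 2 and 3 of PPFP+Pio were far closer than any other pair, with a chi-square per gene of 1.67 against 17.1 to 109 in the other 11 pairs, so counts of calls are also given with these libraries summed as 1. Whether they are separate replicates was not tested, and every n = 3, SD and count of 3 pairs for PPFP+Pio takes them as separate. All 8 thyroid follicular markers were above 3 counts in each library, with a summed level of 9880 to 14170 CPM in the EV groups and PPFP-Pio and of 10010 to 10260 CPM in PPFP+Pio. Of 7 adipocyte markers, Lep and Retn were at 0 in all 12 libraries, while the list summed to 9.19 to 13.95 CPM in the EV groups. It summed to 722.5 to 749.1 CPM in PPFP-Pio and to 975.3 to 1006 CPM in PPFP+Pio, most of it Cfd. Summed macrophage markers (4 of 5 with a row) stayed between 0.380 and 1.42 CPM, and the 4 fibroblast markers between 20.4 and 34.5 CPM, with Dcn at 0 in every group. Pparg, which cannot be separated from the fusion here, was at 1.60 ± 0.347 CPM in EV-Pio and 54.1 ± 6.82 CPM in PPFP-Pio (mean ± SD, n = 3). Fewer cells of a type and less RNA per cell cannot be told apart in these bulk libraries.

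Promoter sequences from RefSeq (GRCr8, 250 bases before to 50 after the start of the gene) were found for 27 of the 34 genes (not for Acaca, Elovl6, Agpat5, Agpat6, Dgat1, Dgat2 and Mogat2). A CCAAT box (CCAAT on either strand) stood in 17 of the 27 (63.0%), against 37.7% of 27457 rat promoters, and a GC box (GGGCGG) in 12 (44.4% against 34.9%). The E-box CACGTG occurred in 3 promoters, those of Elovl3, Elovl5 and Mlx (11.1% against 6.65%). The PPAR and RXR element, a direct repeat of AGGTCA with 1 base of any kind between, was in none of the 27 windows (0.0583% of all promoters), nor was the sterol element TCACNCCAC (1.13%), which says only that these letters are not in these windows. The following windows before the start of the gene, read 5′ to 3′ on the strand of the gene, are shown because they belong to members whose level changed with pioglitazone in PPFP cells, with the letters of the motif in capitals and 1 CCAAT window for each gene. Scd is the row of that name, which was read as the RefSeq gene Scd2.
Scd, CCAAT box on the + strand of the gene, GRCr8 chr1:253118268-253118296 (gene on the + strand): gattgtgcagagCCAATgagagcagcagg
Fads1, CCAAT box on the + strand of the gene, GRCr8 chr1:216252559-216252587 (gene on the + strand): cactcggctcagCCAATgggagggcgcgc
Fads3, CCAAT box on the + strand of the gene, GRCr8 chr1:216110657-216110685 (gene on the + strand): ctccccgggcagCCAATagatgtggaggc
Elovl3, CCAAT box on the - strand of the gene, GRCr8 chr1:254938631-254938659 (gene on the + strand): ctcttggctaagATTGGataacttctgag
Elovl5, CCAAT box on the - strand of the gene, GRCr8 chr8:87671030-87671058 (gene on the + strand): tatcgccccaggATTGGctccaagaccgc
Elovl5, E-box on the + strand of the gene, GRCr8 chr8:87670940-87670969 (gene on the + strand): actgccccgaaaCACGTGaaccacggggga
Agpat4, CCAAT box on the - strand of the gene, GRCr8 chr1:51181113-51181141 (gene on the - strand): ttccttacactcATTGGaagagggtgact
The CCAAT letters thus stood before Scd, Fads1 and Agpat4, which fell with pioglitazone, and before Fads3, Elovl3 and Elovl5, which rose. A match, searched on both strands, is a description of the letters and not a binding site.

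The comparison of PPFP cells with EV cells asks how the pathway differs where the fusion is present. Without pioglitazone PPFP cells had more Elovl5, Dgat2 and Me1 RNA and less Elovl6, Elovl7, Acacb and Scd RNA, each by a fold change above 2. With pioglitazone in both lines the same 7 genes passed that limit in the same directions, together with Elovl3, Scd1 and Agpat9 on the higher side and Fads1, Fads2 and Elovl2 on the lower side. Without pioglitazone 12 of 30 members (40%) had an adjusted p under 0.05 (edgeR's quasi-likelihood test, adjusted over all genes), with 3 higher and 9 lower, while 45.2% of all 10264 tested genes were called (22% higher, 23.1% lower). A fold change above 2 was reached by 7 members (3 higher, 4 lower), and by 14.6% of all genes (7.27% higher, 7.31% lower). The libraries of the lines did not overlap for 16 of 30 members, against 56.5% of genes. With pioglitazone 23 of 31 members (74.2%) were called, 10 higher and 13 lower, against 52.7% of 10291 genes (26.3% higher, 26.4% lower), and 13 members (6 higher, 7 lower) exceeded a fold change of 2, against 19.7% of genes (9.3% higher, 10.4% lower). With libraries 2 and 3 of PPFP+Pio summed as 1, 20 members (8 higher, 12 lower) were called, against 42.4% of genes in that fit. Elovl3, which could be tested only because of its level in PPFP+Pio, is among the 23, and 22 of 30 were called without it. In all 22 of 31 members did not overlap between the lines, against 62.9% of genes. All 12 members called without pioglitazone were among the 23 called with it and kept their direction, which was 100% of the 12 and 52.2% of the 23. Of all genes, those called in both made 86% of the genes called without and 73.5% of the genes called with pioglitazone.

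The median log2 fold change of the tested members was -0.14 without and -0.081 with pioglitazone, beside 0.0016 and 0.012 over all tested genes. Scaling by library size alone moved the median of all genes to -0.080 and -0.12, and the share of higher genes among the calls from 48.7% to 39.2% and from 49.9% to 36.6%. With that scaling Agpat2 and Fads3 were no longer called with pioglitazone (adjusted p = 0.099 and 0.21), and no called member changed direction.

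**Figure D1:**
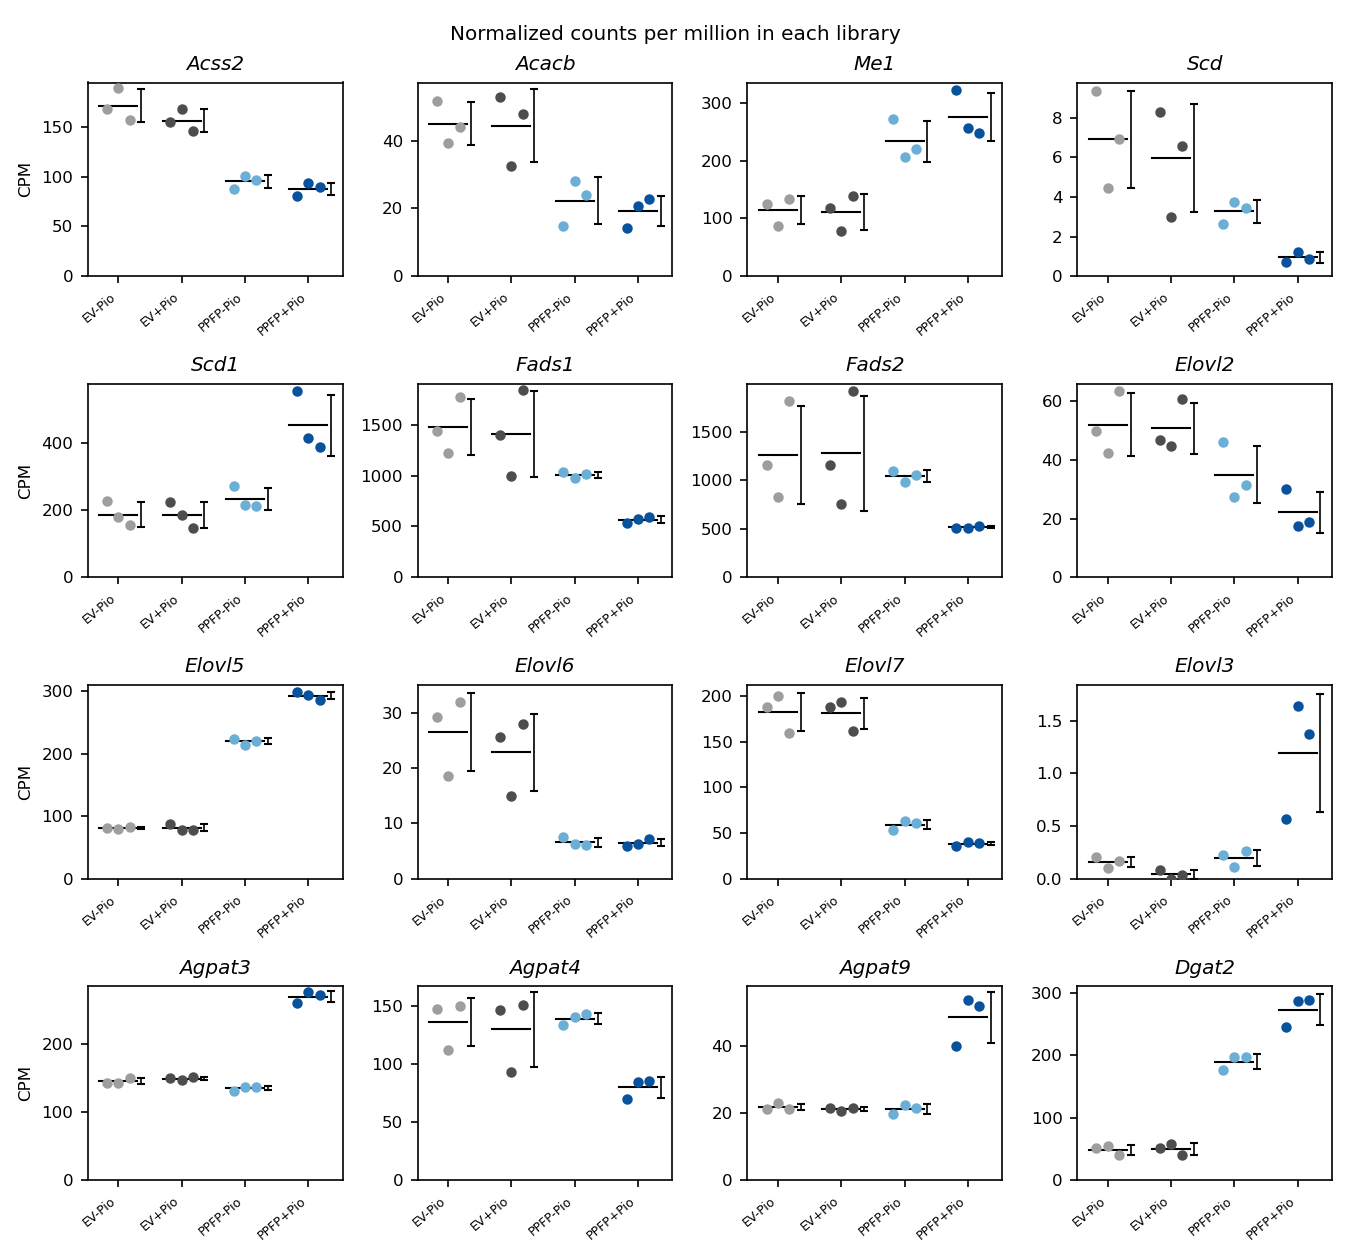
Normalized levels in CPM (vertical axes starting at 0) of 16 genes in the 12 libraries. Points are single libraries of EV-Pio, EV+Pio, PPFP-Pio and PPFP+Pio, horizontal lines are means and the bars beside them show ± 1 SD (n = 3), and the PPFP points lie apart from the EV points for Elovl5, Elovl6, Elovl7 and Dgat2 whether or not pioglitazone was given.

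Among the 6 tested genes of fatty acid synthesis and its precursors 3 were called in each setting, against 45.2% and 52.7% of all genes. Me1 was higher and Acss2 and Acacb were lower in PPFP cells, without and with pioglitazone. The cytosolic malic enzyme Me1 measured 125, 87.3 and 133 CPM in the libraries of EV-Pio and 118, 78.0 and 139 CPM in those of EV+Pio. PPFP-Pio had 273, 207 and 220.5 CPM and PPFP+Pio 323, 258 and 248 CPM. Every PPFP library was above every EV library. The log2 fold change was 1.02 ± 0.18 (adjusted p = 0.0026) without pioglitazone (estimate ± SE) and 1.32 ± 0.22 (adjusted p = 0.002) with it. For Acss2, the acetyl-CoA synthetase of the cytosol and nucleus, the EV libraries held 168, 189.6 and 157 CPM without and 155, 169 and 146 CPM with pioglitazone. The PPFP libraries held 87.9, 101 and 97.0 CPM and 81.1, 93.3 and 89.5 CPM, again with no overlap between the lines, and the log2 fold changes were -0.85 ± 0.10 (adjusted p = 0.00043) and -0.81 ± 0.089 (adjusted p = 0.00028). Acacb encodes the carboxylase of the outer mitochondrial membrane, whose malonyl-CoA restrains fatty acid entry into mitochondria. Its level was 51.9, 39.3 and 44.0 CPM in EV-Pio and 53.1, 32.5 and 47.9 CPM in EV+Pio, against 14.8, 28.1 and 24.1 CPM in PPFP-Pio and 14.3, 20.8 and 22.7 CPM in PPFP+Pio. All PPFP values were below all EV values, at -1.01 ± 0.23 (adjusted p = 0.0088) without and -1.19 ± 0.24 (adjusted p = 0.0047) with pioglitazone.

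The other 3 genes of this group were not called between the lines. Acaca, the carboxylase of the committed cytosolic step, differed by 0.18 ± 0.11 (adjusted p = 0.22) without and 0.22 ± 0.15 (adjusted p = 0.25) with pioglitazone. Acly, which cleaves citrate to acetyl-CoA, had means of 1182 ± 227 CPM in EV-Pio and 978 ± 48.2 CPM in PPFP-Pio (-0.27 ± 0.14, adjusted p = 0.16), and the ranges of the groups overlapped. Thrsp, a protein that stimulates lipogenesis, was at 562 ± 68.5 CPM in EV-Pio and 524 ± 134 CPM in PPFP-Pio (-0.10 ± 0.18, adjusted p = 0.68). The first carboxylation step thus showed a lower Acacb level beside an Acaca level whose difference did not pass the test.

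Of the 5 tested desaturases, 2 were called between the lines without pioglitazone and all 5 with it, against 45.2% and 52.7% of all genes. In the count table the row Scd1 is the gene that RefSeq now names Scd, and the row Scd was read as the gene now named Scd2. These paralogs are closely similar, so the share of reads assigned to each is uncertain. Row Scd had 9.36, 4.46 and 6.93 CPM in EV-Pio and 8.32, 2.99 and 6.60 CPM in EV+Pio, 2.61, 3.77 and 3.43 CPM in PPFP-Pio and 0.719, 1.23 and 0.868 CPM in PPFP+Pio. The groups did not overlap in either comparison, with log2 fold changes of -1.08 ± 0.29 (adjusted p = 0.018) without and -2.65 ± 0.43 (adjusted p = 0.0018) with pioglitazone. Row Scd1, the stearoyl-CoA desaturase that makes oleate, moved the other way. It measured 226, 179 and 154 CPM in EV-Pio, 226, 185 and 147 CPM in EV+Pio and 271, 215 and 212 CPM in PPFP-Pio, where the libraries overlapped (0.32 ± 0.16, adjusted p = 0.14). In PPFP+Pio it was 556, 414 and 388 CPM, above every other library, and 1.30 ± 0.19 (adjusted p = 0.00099) against EV+Pio.

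Fads1 and Fads2, the delta-5 and delta-6 desaturases that make polyunsaturated fatty acids, were both lower in PPFP cells with pioglitazone. The Fads1 level was 1441, 1221 and 1775 CPM in EV-Pio and 1400.0, 996 and 1838 CPM in EV+Pio. In PPFP cells it was 1034, 977 and 1018 CPM without and 535, 574 and 595 CPM with pioglitazone. The EV libraries were widely spread and the PPFP libraries close together, and the lines did not overlap within either treatment. The log2 fold change was -0.55 ± 0.14 (adjusted p = 0.013) without and -1.30 ± 0.22 (adjusted p = 0.0021) with pioglitazone. Fads2 varied even more among EV libraries, at 1154, 826 and 1817 CPM and 1159, 752 and 1927 CPM. It was 1100.0, 981 and 1060.0 CPM in PPFP-Pio, within the EV-Pio range (-0.27 ± 0.25, adjusted p = 0.41), and 514, 511 and 529 CPM in PPFP+Pio, below every other library (-1.30 ± 0.31, adjusted p = 0.011). Fads3, a related desaturase, differed by -0.20 ± 0.11 (adjusted p = 0.18) without pioglitazone and was called with it (0.34 ± 0.11, adjusted p = 0.04), although its EV+Pio and PPFP+Pio ranges overlapped. Without pioglitazone the calls of Scd and Fads1 depended on single libraries. The adjusted p of Scd was 0.063 without library 1 of EV-Pio and 0.059 and 0.055 without libraries 1 and 3 of PPFP-Pio, and that of Fads1 was 0.059 and 0.056 without libraries 2 and 3 of PPFP-Pio (0.0018 to 0.063 and 0.0012 to 0.059 over all alternatives). The Fads3 call with pioglitazone was lost without library 2 or 3 of EV+Pio and without library 2 or 3 of PPFP+Pio, with these summed, with library size alone, with a minimum of 10 counts and with the replicate block, with an adjusted p of 0.01 to 0.21 over the alternatives.

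Of the elongases, 4 of 5 tested were called without pioglitazone, against 45.2% of all genes, and 6 of 6 with it (5 of 5 without Elovl3), against 52.7%. Elovl5, which elongates polyunsaturated fatty acids, measured 81.7, 80.0 and 81.9 CPM in EV-Pio and 87.5, 78.4 and 77.7 CPM in EV+Pio. In PPFP cells it was 224, 215 and 221 CPM without and 298, 294 and 287 CPM with pioglitazone. The libraries of each group lay close together and the lines were well apart, 2.71-fold without (1.44 ± 0.070, adjusted p = 8.9e-06) and 3.65-fold with pioglitazone (1.87 ± 0.079, adjusted p = 5.3e-06). Elovl6, which turns palmitate to stearate, was the opposite, at 29.3, 18.5 and 31.9 CPM in EV-Pio and 25.8, 15.0 and 28.1 CPM in EV+Pio. PPFP-Pio had 7.54, 6.27 and 6.04 CPM and PPFP+Pio 5.94, 6.30 and 7.18 CPM. No PPFP library reached the lowest EV library, and Elovl6 was 4.01-fold lower without (-2.0 ± 0.22, adjusted p = 0.00031) and 3.51-fold lower with pioglitazone (-1.81 ± 0.25, adjusted p = 0.00085). Elovl7, an elongase of saturated very long chains, had 188, 201 and 159.6 CPM and 189, 194 and 161 CPM in EV cells without and with pioglitazone. The corresponding PPFP libraries had 53.3, 63.2 and 60.5 CPM and 36.2, 39.6 and 38.5 CPM, far below the EV libraries in both cases. The log2 fold changes were -1.63 ± 0.11 (adjusted p = 3.7e-05) and -2.23 ± 0.092 (adjusted p = 5e-06).

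Elovl2, which acts on the longest polyunsaturated chains, was at 49.8, 42.5 and 63.5 CPM in EV-Pio and 46.7, 44.8 and 60.5 CPM in EV+Pio. It was at 45.9, 27.4 and 31.3 CPM in PPFP-Pio, overlapping EV-Pio (-0.57 ± 0.22, adjusted p = 0.066), and at 30.1, 17.5 and 18.7 CPM in PPFP+Pio, below EV+Pio (-1.19 ± 0.22, adjusted p = 0.0036). Elovl1, an elongase of the very long chains of sphingolipids, was lower by a smaller amount, -0.46 ± 0.079 (adjusted p = 0.0024) without and -0.23 ± 0.073 (adjusted p = 0.031) with pioglitazone. The second of these calls was lost without library 1 of EV+Pio, without any 1 of the PPFP+Pio libraries, with libraries 2 and 3 of PPFP+Pio summed, with edgeR's exact test and with the replicate block (adjusted p 0.0036 to 0.11 over the alternatives).

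The lowest members are given by their counts. Elovl3, an elongase known from brown fat, had 14 counts in EV-Pio, 4 in EV+Pio, 15 in PPFP-Pio and 100 in PPFP+Pio, summed over the 3 libraries. Its CPM values in PPFP+Pio were 0.568, 1.64 and 1.37, and every other library was at or below 0.257 CPM. The ratio of normalized counts was 29.0 for PPFP+Pio against EV+Pio (95% interval 11 to 109, exact and for counting error only) and 1.24 without pioglitazone (0.558 to 2.77). Between EV+Pio and EV-Pio the ratio was 0.264 (0.0634 to 0.842). The fitted log2 fold change between the lines with pioglitazone was 4.74 ± 0.73 (adjusted p = 0.0013), and 4.22 to 5.83 with 1 library left out. Mogat2, a monoacylglycerol acyltransferase, had 22 counts in EV-Pio and 24 in EV+Pio but 7 in PPFP-Pio and 4 in PPFP+Pio, a ratio between the lines of 0.368 (0.133 to 0.892) without and 0.194 (0.0488 to 0.564) with pioglitazone. Mogat1, its relative, had 10, 6, 20 and 15 counts in the same order of groups, with ratios of 2.31 (1.03 to 5.53) and 2.90 (1.06 to 9.14). These intervals cover counting error and not the spread between libraries. Library 1 of EV-Pio held 15 of the 22 Mogat2 counts of that group, and library 3 of PPFP+Pio held all 4 of its group. Elovl4 had 0 of 345949205 counts, which allows up to 0.00867 CPM.

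In the assembly of triglyceride 3 of 13 tested genes were called without (45.2% of all genes) and 9 of 13 with pioglitazone (52.7%), and the widest difference was at the last step. Dgat2, which adds the final acyl chain and is tied to newly made fatty acids, had 50.6, 53.8 and 39.1 CPM in EV-Pio and 50.5, 58.2 and 39.4 CPM in EV+Pio. PPFP-Pio had 176, 197 and 197 CPM and PPFP+Pio 245, 287 and 288 CPM. The lowest PPFP library was above the highest EV library, and the difference was 3.97-fold without (1.99 ± 0.13, adjusted p = 2.9e-05) and 5.61-fold with pioglitazone (2.49 ± 0.15, adjusted p = 2.1e-05). Dgat1, which catalyses the same reaction and also re-esterifies fatty acids taken up, differed by 0.23 ± 0.10 (adjusted p = 0.093) without pioglitazone and was higher with it (0.38 ± 0.089, adjusted p = 0.0092, or adjusted p = 0.051 without library 3 of PPFP+Pio).

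The first acylation is shared by Gpam in mitochondria and by 2 enzymes of the endoplasmic reticulum, which the table lists as Agpat6 and Agpat9 and RefSeq now names Gpat4 and Gpat3. Gpam had 110.4, 123 and 116 CPM in EV-Pio and 86.0, 72.5 and 72.4 CPM in PPFP-Pio, with no overlap, and differed by -0.60 without (SE 0.10, adjusted p = 0.0018) and -0.59 with pioglitazone (SE 0.083, adjusted p = 0.00089). Agpat9 was at 21.0, 22.8 and 21.2 CPM in EV-Pio, 21.4, 20.5 and 21.3 CPM in EV+Pio and 19.6, 22.4 and 21.4 CPM in PPFP-Pio. These 9 libraries overlapped, and the difference without pioglitazone was -0.038 ± 0.10 (adjusted p = 0.78). In PPFP+Pio it rose to 39.8, 53.5 and 51.9 CPM, above all of them (1.22 ± 0.13, adjusted p = 0.00026 against EV+Pio). Agpat6 differed by -0.18 ± 0.10 (adjusted p = 0.16) without and -0.0056 ± 0.083 (adjusted p = 0.96) with pioglitazone.

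The second acylation, which makes phosphatidic acid, differed in both directions. Agpat5 was lower in PPFP cells in both settings, -0.87 ± 0.11 (adjusted p = 7e-04) without and -0.65 ± 0.087 (adjusted p = 0.00074) with pioglitazone. Agpat3 had 143, 143 and 150.1 CPM in EV-Pio, 149, 147 and 151 CPM in EV+Pio and 131, 137 and 137 CPM in PPFP-Pio. In PPFP+Pio it was 261, 277 and 272 CPM, apart from the other 9 libraries, and differed by 0.87 ± 0.072 (adjusted p = 7.7e-05) from EV+Pio, against -0.11 ± 0.071 (adjusted p = 0.26) without pioglitazone. Agpat4 had 147, 112 and 149.8 CPM in EV-Pio, 147, 92.8 and 151 CPM in EV+Pio, 134, 141 and 143 CPM in PPFP-Pio and 69.5, 84.4 and 85.5 CPM in PPFP+Pio. Only PPFP+Pio lay below the others, at -0.69 ± 0.20 (adjusted p = 0.022) against EV+Pio, and without pioglitazone the difference was 0.030 ± 0.12 (adjusted p = 0.86). Agpat2, whose loss causes lipodystrophy, was higher with pioglitazone (0.34 ± 0.090, adjusted p = 0.015) and not called without it (-0.074 ± 0.074, adjusted p = 0.45). Agpat1 was not called in either setting (-0.090 and -0.081). The Agpat4 call was lost without library 1 of EV+Pio or library 1 of PPFP+Pio, and the Agpat2 call without library 1 of EV+Pio or libraries 2 or 3 of PPFP+Pio, with these summed and with library size alone (adjusted p 0.0012 to 0.072 and 0.0032 to 0.099 over the alternatives).

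The lipins remove the phosphate and hand diacylglycerol to the last step. Lpin3 was lower with pioglitazone (-0.96 ± 0.19, adjusted p = 0.0046), with 90.0, 93.4 and 61.3 CPM in EV+Pio and 33.4, 44.1 and 46.9 CPM in PPFP+Pio, and differed by -0.72 ± 0.25 (adjusted p = 0.053) without it. Lpin1 and Lpin2 were not called between the lines, at -0.10 and 0.31 without and -0.27 and 0.073 with pioglitazone. Mlx, the partner of ChREBP and the only regulator of the list with a row, was not called either (0.20 ± 0.072, adjusted p = 0.056 and 0.12 ± 0.080, adjusted p = 0.23).

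**Figure D2:**
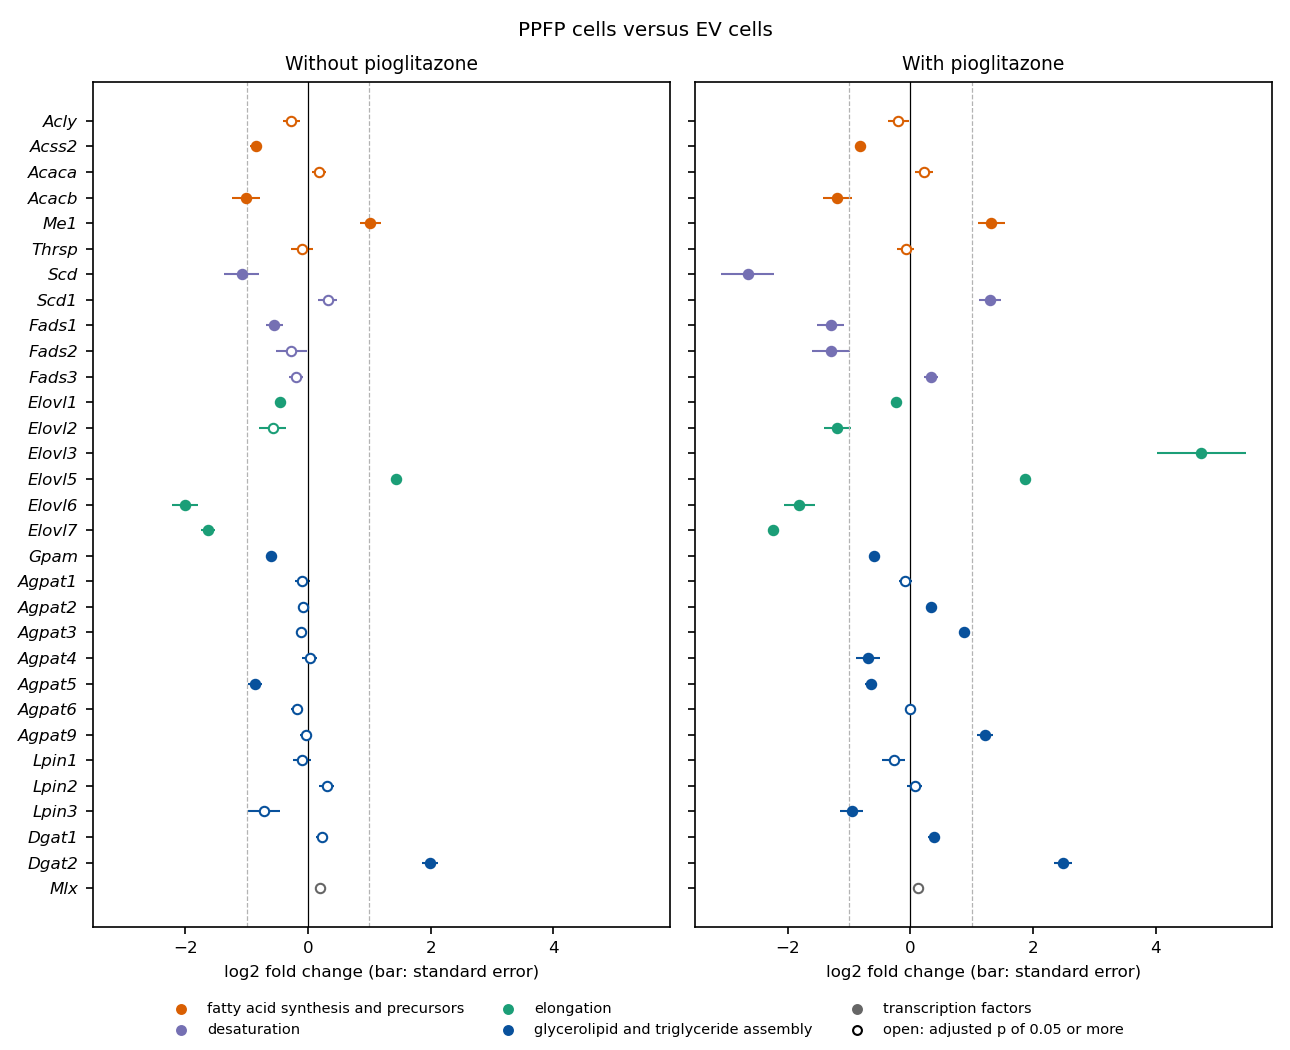
Log2 fold change of PPFP cells against EV cells (horizontal axis) for the tested members, without pioglitazone on the left and with it on the right. Points are edgeR estimates from 3 libraries per group, bars are ± 1 standard error, colours give the role, filled points have an adjusted p under 0.05 and the dashed lines mark a fold change of 2; 12 points are filled on the left and 23 on the right.

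Comparing PPFP cells with and without pioglitazone asks what the ligand does where the fusion is present. All 5 tested desaturases changed, Scd1 and Fads3 upward and Scd, Fads1 and Fads2 downward. Agpat3 and Agpat9 rose to 2.02-fold and 2.31-fold of their level, Dgat2, Agpat2, Elovl5 and Elovl3 rose as well, and Agpat4 and Elovl7 fell. By role, 5 of 5 desaturases, 3 of 6 elongases, 5 of 13 genes of assembly and 0 of 6 of fatty acid synthesis were called, to be read against 14.8% of all genes. In all 13 of 31 members (41.9%) were called, 8 higher and 5 lower, against 14.8% of 10064 genes (7.63% higher, 7.13% lower), and 5 exceeded a fold change of 2 (Agpat9, Agpat3 and Elovl3 higher, Scd and Fads2 lower) against 2.42% of genes (1.11% higher, 1.31% lower). The groups did not overlap for 16 of 31 members, against 34.4% of genes. Elovl3, which could be tested only because of its level in PPFP+Pio, is among the 3 elongases and the 5 members above a fold change of 2. Without Elovl3 the count of called members was 12 of 30. With libraries 2 and 3 of PPFP+Pio summed as 1, 10 members were called, against 6.98% of genes in that fit. Scaling by library size alone moved the share of higher genes among all calls from 51.7% to 41.2%. Of the 7 adipocyte markers Cfd (0.38), Plin1 (2.68) and Cidec (1.46) rose and Adipoq (-0.91) fell in the same comparison (log2 fold changes). Lep and Retn were at 0, and Fabp4 had 0 counts in PPFP-Pio and 8 in PPFP+Pio, summed over the 3 libraries. The part of these markers in the members' response was not tested.

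Libraries of the same replicate number deviated together within each cell line and were taken as pairs. A fit with the number as a block was therefore also made. Library 3 of PPFP+Pio nevertheless correlated more with library 2 of PPFP-Pio (0.54) than with library 3 of PPFP-Pio (0.43). The block fit also takes libraries 2 and 3 of PPFP+Pio as separate replicates, which was not tested. With this block 25 of 31 members (80.6%) were called, 14 higher and 11 lower, against 51.6% of all genes (27.7% higher, 23.9% lower), and the 13 members called without the block were among them. With pair 3 of PPFP cells left out of that fit, 21 members were called, against 41.3% of genes, and Acss2, Thrsp, Elovl1 and Dgat1 were no longer among them.

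The desaturases responded in opposite directions within their family. Scd1 changed by 0.97 ± 0.16 (adjusted p = 0.0097), and its log2 ratios within replicate numbers 1 to 3 were 1.04, 0.95 and 0.87. Scd changed by -1.78 ± 0.25 (adjusted p = 0.0064), with ratios of -1.86, -1.61 and -1.98. Both moved by similar amounts in each of the 3 pairs. Fads2 changed by -1.0 ± 0.056 (adjusted p = 0.00037) with ratios of -1.10, -0.94 and -1.0, and its neighbour in the pathway, Fads1, by -0.82 ± 0.060 (adjusted p = 0.00073) with ratios of -0.95, -0.77 and -0.77. The fall of the delta-5 and delta-6 desaturases was thus seen in each pair. Fads3 rose by a smaller amount, 0.43 ± 0.11 (adjusted p = 0.049). The Fads3 call was lost without any 1 of the PPFP-Pio libraries and without library 2 or 3 of PPFP+Pio, with libraries 2 and 3 of PPFP+Pio summed (0.16), with RLE factors (0.051), with library size alone (0.1) and with a minimum of 10 counts (0.054), at an adjusted p of 1.3e-09 to 0.17 over the alternatives. The Scd1 call was lost without library 2 or 3 of PPFP-Pio (1.2e-17 to 0.057). Both were called with the block (1.3e-09 and 9e-17). With all 12 libraries in 1 fit the adjusted p of Fads2 was 0.065 (7.7e-51 to 0.065 over the alternatives).

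Among the elongases Elovl5 rose by 0.43 ± 0.044 on the log2 scale (adjusted p = 0.0021), so that pioglitazone added to a level already above that of EV cells. Elovl7 changed by -0.62 ± 0.086 (adjusted p = 0.006), from a level already below it. Elovl3 rose by 2.61 ± 0.54 (adjusted p = 0.023), with a count ratio of 6.20 (3.58 to 11.5). Its ratios spread widely over the pairs, at 1.36, 3.87 and 2.41. Elovl3 could be tested only because of its level in PPFP+Pio, the group in which it is highest. Its call was lost without library 2 or 3 of either PPFP group and with libraries 2 and 3 of PPFP+Pio summed (adjusted p 2.7e-06 to 0.092 over the alternatives). Elovl2 changed by -0.65 ± 0.27 (adjusted p = 0.16) without the block, and by -0.65 ± 0.056 (adjusted p = 6.6e-10) with it, and its ratios within pairs were -0.61, -0.65 and -0.74. Without library 1 of PPFP+Pio it was called without the block (adjusted p = 0.048). Elovl1 was called with the block (0.17 ± 0.046, adjusted p = 0.003) and, without it, by DESeq2 (0.041) but not by edgeR (0.083). Elovl6, low in PPFP cells, showed ratios of both signs (-0.34, 0.0076 and 0.25) and was not called (-0.019 ± 0.14, adjusted p = 0.95).

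In triglyceride assembly the response was largest for Agpat9 (1.21 ± 0.13, adjusted p = 0.0027) and Agpat3 (1.01 ± 0.053, adjusted p = 0.00036), which act at the first and second acylation. The ratios within pairs were 1.02, 1.26 and 1.28 for Agpat9 and 0.99, 1.02 and 0.99 for Agpat3, so the Agpat3 response hardly varied. Dgat2 (0.54 ± 0.091, adjusted p = 0.012) and Agpat2 (0.43 ± 0.057, adjusted p = 0.005) rose and Agpat4 fell (-0.79 ± 0.10, adjusted p = 0.0039). The Dgat2 call was lost without library 2 of PPFP+Pio (adjusted p = 0.058) and with libraries 2 and 3 of PPFP+Pio summed (0.053), with 6.7e-12 to 0.058 over all alternatives. In the fit with the block the lipins were called as well, all downward, Lpin1 at -0.19 ± 0.061 (adjusted p = 0.01), Lpin2 at -0.30 ± 0.036 (adjusted p = 2.9e-07) and Lpin3 at -0.25 ± 0.057 (adjusted p = 0.00064). Without the block their adjusted p was 0.66, 0.095 and 0.49, and Lpin2 was called by DESeq2 (0.041) and without library 1 of PPFP-Pio (0.024). Agpat5 (0.22 ± 0.051, adjusted p = 0.0011), Agpat6 (0.18 ± 0.039, adjusted p = 0.00052) and Dgat1 (0.15 ± 0.042, adjusted p = 0.0053) were called upward with the block, against adjusted p-values of 0.23, 0.25 and 0.12 without it. Gpam, Agpat1 and Mlx were called in neither fit (0.015, 0.049 and -0.0062).

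For the genes of fatty acid synthesis the block gave small calls, none of which was made without it (adjusted p = 0.28 for Me1, 0.79 for Thrsp, 0.49 for Acss2 and 0.7 for Acacb). Me1 changed by 0.25 ± 0.036 (adjusted p = 2.5e-06) and Thrsp by 0.12 ± 0.041 (adjusted p = 0.02), whereas Acss2 (-0.11 ± 0.040, adjusted p = 0.032) and Acacb (-0.19 ± 0.071, adjusted p = 0.028) fell. Acly and Acaca were not called (-0.034 and 0.032 with the block). Without the block the Thrsp estimate of 0.10 changed sign when library 2 of PPFP-Pio (-0.030) or library 1 of PPFP+Pio (-0.050) was left out.

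**Figure D3:**
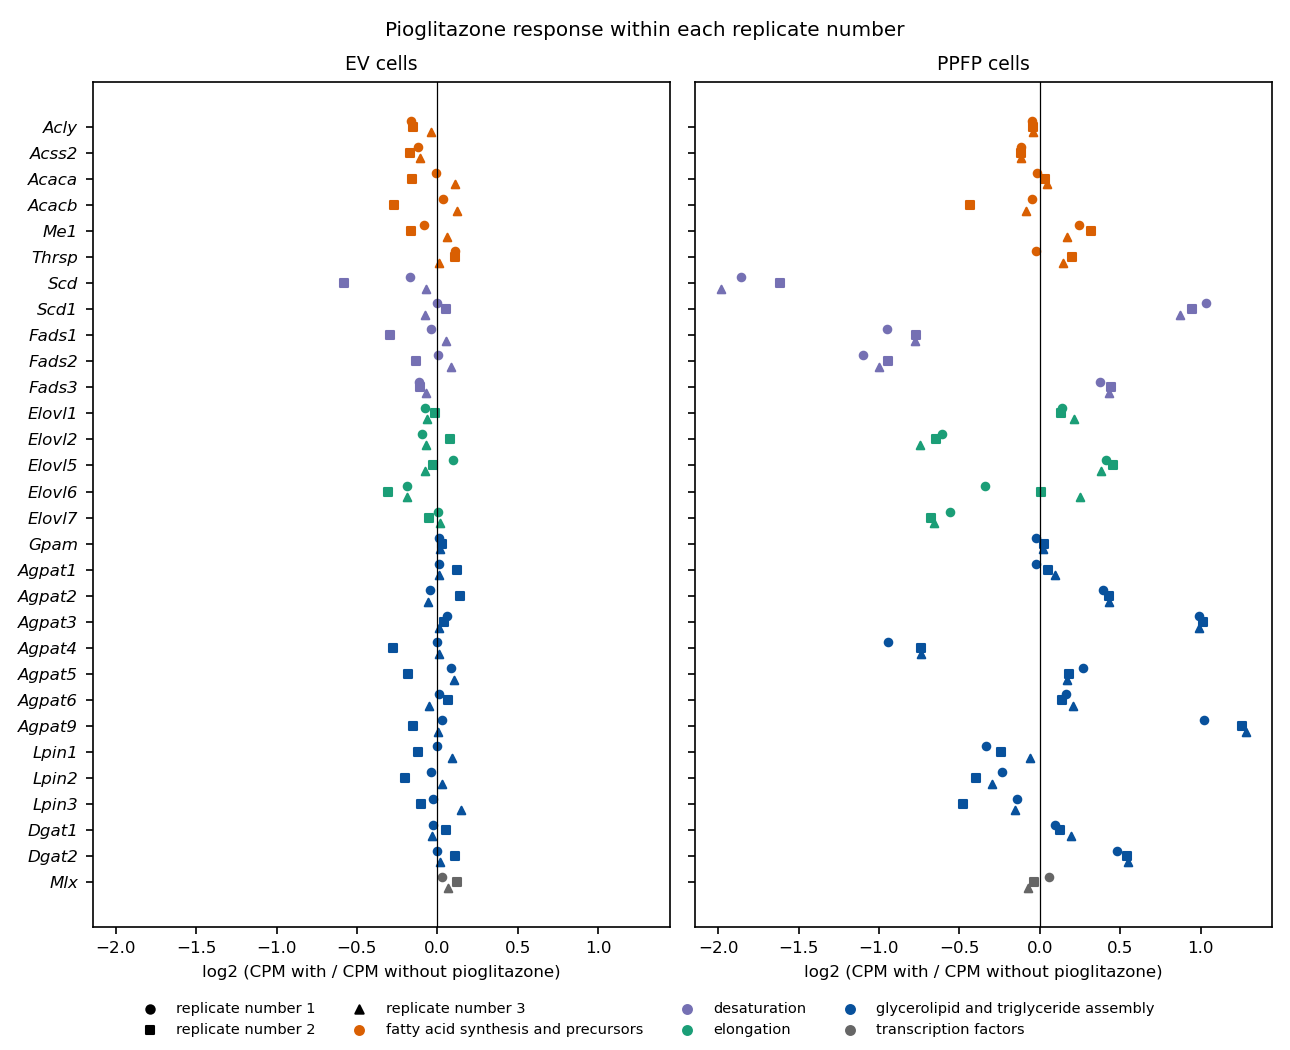
Log2 ratio of CPM with over without pioglitazone (horizontal axis) within each replicate number for 30 members, in EV cells on the left and in PPFP cells on the right; marker shapes are replicate numbers 1 to 3 and colours give the role. All 3 ratios lie beyond 0.25 in the same direction for 13 members in PPFP cells and for 0 in EV cells, and Elovl3 is left out because it had few counts.

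In EV cells no member was called. Of 30 tested members 0 were called by edgeR's quasi-likelihood test, as were 0% of 10146 genes, 0 members had an unadjusted p under 0.05, and the groups did not overlap for 0 of 30 members and 1.48% of genes. DESeq2 and edgeR's exact test called 0 members too, and with the replicate block they were 0 of 30 as well, 4 members had an unadjusted p under 0.05, and 1 gene of 10146 (0.00986%) was called. The estimates left room for changes of limited size. For Agpat3 it was 0.035 with an approximate 95% interval of -0.10 to 0.17, for Agpat9 -0.043 (-0.20 to 0.12), for Elovl5 -0.0018 (-0.15 to 0.14) and for Scd1 -0.0068 (-0.38 to 0.37). The intervals of Scd (-1.02 to 0.60) and Fads2 (-0.79 to 0.81) were wider. The ratios within pairs in EV cells kept 1 sign in 11 of 30 members (36.7%), against 28.2% of all genes, and in PPFP cells in 24 of 30 (80%), against 69.7%. All 3 ratios exceeded 0.25 in 1 direction for 0 members in EV cells (0.461% of genes) and for 13 (43.3%) in PPFP cells (19% of genes).

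Whether the response to pioglitazone differed between the cell lines was tested directly. It differed for 4 of 31 members, against 2.64% of 10482 genes (1.38% with a higher and 1.26% with a lower response). The 4 were Elovl3, Agpat9, Agpat3 and Elovl5, each with a higher response in PPFP cells than in EV cells. The difference exceeded a fold of 2 for Elovl3 and Agpat9, 2 of 31 members, and for 0.925% of genes. Without Elovl3, which passed the filter only through PPFP+Pio, the counts were 3 of 30 and 1 of 30. The difference of the log2 responses was 0.96 ± 0.078 (adjusted p = 0.00016) for Agpat3 and 1.24 ± 0.15 (adjusted p = 0.0018) for Agpat9, and the calls of Agpat3 and Agpat9 held in every alternative run. For Elovl5 it was 0.41 ± 0.087 (adjusted p = 0.03) and for Elovl3 4.42 ± 1.0 (adjusted p = 0.043). The Elovl5 call was lost without any of 10 of the 12 libraries (all but library 1 of EV+Pio and library 1 of PPFP-Pio, adjusted p 3.9e-05 to 0.091 over the alternatives) and the Elovl3 call without any of 11 (all but library 1 of PPFP+Pio, 0.0019 to 0.12). With a block of the replicate number within each line 19 of 31 members (61.3%) were called, 11 with a higher and 8 with a lower response, against 34.3% of all genes (17.2% higher, 17.1% lower). These included all 5 desaturases, for example Scd1 at 0.96 ± 0.052 (adjusted p = 2.6e-08), Fads2 at -1.0 ± 0.063 (adjusted p = 8.5e-08), Fads1 at -0.74 ± 0.080 (adjusted p = 1.1e-05) and Scd at -1.57 ± 0.21 (adjusted p = 7.5e-05), against adjusted p-values of 0.1, 0.34, 0.2 and 0.19 without the block. Without the block Scd1 was called by DESeq2 (0.017), and Fads1 (0.035) and Scd (0.046) were called when library 2 of EV+Pio was left out. Elovl7, Elovl2 and Agpat4 had a lower response in that fit (-0.62 ± 0.051, adjusted p = 9.2e-07, -0.63 ± 0.068, adjusted p = 1.1e-05 and -0.72 ± 0.076, adjusted p = 9e-06), and Dgat2 a higher one (0.48 ± 0.051, adjusted p = 8.5e-06). Without the block Elovl7 was at -0.62 ± 0.15 (adjusted p = 0.051), and it was called with DESeq2 (0.0049), RLE factors (0.049), no filter (0.041) and a minimum of 10 counts (0.04), and without library 2 of EV-Pio, library 3 of EV+Pio or library 1 of PPFP-Pio (9.2e-07 to 0.13 over the alternatives). With libraries 2 and 3 of PPFP+Pio summed as 1, 2 members were called without the block, against 1.42% of genes in that fit.

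A list of 50 further genes of the pathway, none of them among the 38, was read from the same fits. Of 48 tested, 23 (47.9%) were called between the lines without pioglitazone, 13 higher and 10 lower, against 45.2% of all genes, and 28 (58.3%) with it, 18 higher and 10 lower, against 52.7%. With pioglitazone in PPFP cells 10 (20.8%) were called, 6 higher and 4 lower, against 14.8% of all genes. With the replicate block they were 25 (52.1%), 16 higher and 9 lower, against 51.6%. They include Lpcat3, which puts polyunsaturated chains into phospholipids (0.74 ± 0.10, adjusted p = 0.0045), Hsd17b12, the ketoreductase of the elongation cycle (0.48 ± 0.071, adjusted p = 0.0075), and Idh1, a cytosolic source of NADPH (-0.55 ± 0.086, adjusted p = 0.0084). In EV cells 0 of 49 were called, and the difference in response was called for 0 of 49 without (2.64% of all genes) and 20 of 49 with the block (40.8%, against 34.3%). The genes described next were called with a fold change above 2 between the lines in at least 1 setting. Of all tested genes, 14.6% passed that limit without and 19.7% with pioglitazone. Ptpla, a dehydratase of the elongation cycle, was higher in PPFP cells (1.02 ± 0.14, adjusted p = 0.001 without and 1.23 ± 0.16, adjusted p = 0.00061 with pioglitazone). Nr1h3, which encodes the nuclear receptor LXR alpha, was higher as well (1.02 ± 0.26, adjusted p = 0.014 and 2.44 ± 0.29, adjusted p = 0.00042) and rose with pioglitazone in PPFP cells (1.34 ± 0.29, adjusted p = 0.027). Its levels were 3.14, 2.72 and 2.0 CPM in EV-Pio, 3.09, 2.54 and 1.82 CPM in EV+Pio, 3.86, 6.49 and 5.57 CPM in PPFP-Pio and 8.90, 15.8 and 15.3 CPM in PPFP+Pio. Acsl3, which activates fatty acids to acyl-CoA, and Cds1, which diverts phosphatidic acid to phospholipids, were lower (-1.14 ± 0.12, adjusted p = 0.00022 and -1.06 ± 0.15, adjusted p = 0.0011 without, -1.02 ± 0.12, adjusted p = 0.00037 and -1.09 ± 0.21, adjusted p = 0.0039 with pioglitazone). Mecr, a reductase of mitochondrial fatty acid synthesis, exceeded a fold change of 2 only with pioglitazone (1.23 ± 0.13, adjusted p = 0.00022, against 0.53 ± 0.15, adjusted p = 0.024 without). The summed adipocyte markers moved with the lines as given above, with Lep and Retn at 0, and their part in these differences was not tested.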

How the data were processed

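RNA was sequenced from 12 libraries of PPFP and EV cells with and without pioglitazone, 3 in each of 4 groups. The deposited table holds the unnormalized counts per gene symbol that the authors obtained by aligning reads to rn4 with TopHat2 2.0.11 and counting with HTSeq 0.6.1p1 in its intersection-strict mode. The strand option of the counting is not given in the sources used here, so reads of overlapping antisense genes cannot be separated. ChIP-seq peaks were not used here. The statistics were computed with edgeR 4.0.16 under R 4.3.3 (filterByExpr, TMM factors, quasi-likelihood test, Benjamini-Hochberg adjustment over all tested genes) on the 6 libraries of each pair of groups, or on all 12 for the difference in response. The study also compared pairs of groups in edgeR, with tagwise dispersions, and its methods do not name the edgeR test. A gene was called at an adjusted p under 0.05, and where stated only beyond a fold change of 2. The standard error was the log2 fold change divided by the square root of F, intervals of log2 values span 1.96 standard errors, and CPM used TMM factors of 0.925 to 1.05. Every member is reported by role, with full statistics for those called with a fold change above 2 or in the pioglitazone response of PPFP cells. Genes of the further pathway list have values where called with a fold change above 2, and Lpcat3, Hsd17b12 and Idh1 were chosen after their values were seen. A gene of that list that meets this rule is not reported here. The members and lists were chosen with earlier results of these data known. The methods were tested on simulated data.

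Libraries with the same replicate number deviated together within a cell line (correlations of deviations from the group means over 10480 genes of 0.743, 0.465 and 0.434 in PPFP cells and 0.531, 0.729 and 0.774 in EV cells), and the labels number the replicates 1 to 3. The study's methods state 3 independent experiments, and that the samples of an experiment shared their sequencing lanes, but no source used here says that a number marks an experiment. Alternatives were DESeq2 1.42.0, edgeR's exact test, RLE factors, library size alone, no filter, at least 10 counts in every library, all 12 libraries in 1 fit, the replicate block and each library left out. Summing libraries 2 and 3 of PPFP+Pio and leaving pair 3 out of the block were added after seeing the data.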

Additional observations from a re-analysis of the deposited data

Results flagged for a closer look

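The response to pioglitazone differed between the cell lines by the test of the difference for 4 members. Each of them had a higher response in PPFP cells than in EV cells. Elovl7, with a lower response, was at an adjusted p of 0.051. It was called in 6 of 8 alternative settings and in 3 of 12 runs with 1 library left out. For Agpat3 the response in PPFP cells exceeded that in EV cells by 0.96 on the log2 scale, with the response 1.01 in PPFP cells and 0.035 in EV cells, and each of the 3 pairs was higher in both lines. For Agpat9 the difference was 1.24, between 1.21 and -0.043, with 3 of 3 pairs higher in PPFP cells. For Elovl5 it was 0.41, between 0.43 and -0.0018. Elovl5 lost its call when any of 10 of the 12 libraries was left out, all but library 1 of EV+Pio and library 1 of PPFP-Pio, and with libraries 2 and 3 of PPFP+Pio summed (adjusted p 3.9e-05 to 0.091 over the alternatives). For Elovl3 the difference was 4.42, on 4 counts in EV+Pio and 14 in EV-Pio, and 3.90 to 5.52 with 1 library left out. Elovl3 lost its call without any of 11 libraries, all but library 1 of PPFP+Pio, and with libraries 2 and 3 of PPFP+Pio summed (0.0019 to 0.12).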

How the results depend on the processing

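Leaving out 1 library at a time gave 10 to 14 called members between the lines without pioglitazone (12 with all libraries; 4 to 7 with a fold change above 2, the lowest without library 1 of PPFP-Pio, against 7; 33.2% to 46.8% of all genes called), and 19 to 23 with pioglitazone (13 to 14; 41.3% to 55.3% of genes). It gave 10 to 14 for the pioglitazone response of PPFP cells (3 to 5 with a fold change above 2, the lowest without library 3 of PPFP-Pio, against 5; 6.24% to 17% of genes), 0 in EV cells, and 2 to 6 for the difference in response (1 to 2, against 4 and 2; 1.17% to 2.92% of genes). The response of Thrsp spanned -0.050 to 0.31, reversed without library 2 of PPFP-Pio (-0.030) and library 1 of PPFP+Pio (-0.050). With all 12 libraries in 1 fit, 3 members passed a fold change of 2 in the pioglitazone response of PPFP cells. For the difference in response DESeq2 called 7 members (5.73% of genes), a minimum of 10 counts left 1 above a fold change of 2 because Elovl3 was no longer tested, and summing libraries 2 and 3 of PPFP+Pio left 2, with 1 above that limit. With the replicate block the pioglitazone response of PPFP cells gave 25 called members and the difference in response 19, and with pair 3 of PPFP cells left out of the block they gave 21 (11 higher, 10 lower; 41.3% of genes) and 19 (10 higher, 9 lower; 27.6%), the latter with 5 above a fold change of 2. Between the cell lines libraries of the same number did not deviate together for numbers 1 and 3 (correlations -0.25 and -0.32 without pioglitazone), and the experiments spanned both lines by the methods, but their link to the numbers is not given in the sources used here. The block gave 15 called members without (39.5% of all genes; Scd1, Elovl2 and Lpin3 gained) and 21 with pioglitazone (44.2%; Fads3 and Elovl1 lost). Library 3 of PPFP+Pio correlated more with library 2 of PPFP-Pio (0.54) than with its own number (0.43). The other alternatives kept counts of called members within 1.5 times. Depth limits Elovl3, Mogat1 and Mogat2. Apart from the settings named, the cause of these shifts was not tested.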

Other observations

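The order of the EV libraries was compared between both treatments. Library 2 was the lowest in EV-Pio and also in EV+Pio for 16 of 31 members (51.6%), against 26.8% of 10480 genes, and library 3 was the highest in both for 14 (45.2%), against 27.5%. The 16 members include Acly, Acaca, Me1, Thrsp, Fads1, Fads2, Elovl2 and Elovl6. Fads2, for example, had 1154, 826 and 1817 CPM in libraries 1 to 3 of EV-Pio, and 1159, 752 and 1927 CPM in those of EV+Pio. In PPFP cells library 1 was the lowest in both treatments for 13 of 31 members (41.9%), against 36% of genes, and the highest for 11 (35.5%), against 36.7%, and library 2 was the lowest for 4 (12.9%), against 12.2%. What differed between the EV experiments is not given in the labels, and the ranking was not tested.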
